A study of Capra hircus with 10 samples.

Results

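miR-204 and miR-211 were followed by small RNA sequencing in lactating mammary tissue from 10 goats of the Alpine breed. The members were the rows of the deposited count tables whose name, without the species prefix, is miR-204 or miR-211 with or without an arm. This rule found 3 of the 1804 miRNA listed: miR-204-5p, miR-204-3p and miR-211, which is listed without an arm but placed on the 5p arm and is called miR-211-5p here. A highest normalized count above 28, the threshold of the study's methods, was reached by 2 of these 3 and by 490 of the 1804 miRNA, and miR-204-3p stayed below it. Normalized counts are the deposited counts of a library over its size factor (median of ratios).

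The goats were at peak lactation, 48 ± 2 days after kidding, and each gave 1 library of mammary tissue taken after slaughter. All of them were fed a hay-based diet for 2 weeks. Over the last 48 h the 4 Control goats (L01, L04, L06 and L10) ate ad libitum and the other 6 (FD: L02 and L03, L05, and L07 to L09) were food deprived with free access to water. The libraries are biological replicates of whole gland, in which more cells of a type and more miRNA per cell cannot be told apart. They held from 4495512 to 7506955 counts in Control and from 5674119 to 9842009 counts in FD goats.

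miRNA guide the silencing complex to messenger RNA, mostly by pairing through bases 2 to 8, the seed, so miRNA with the same seed are grouped as a family with overlapping targets. miR-204 and miR-211 form such a family. Each lies in a gene for a melastatin-type cation channel, miR-204 in TRPM3 and miR-211 in TRPM1. miR-204 is known from retinal pigment epithelium, choroid plexus and fat cell differentiation, where it represses the osteogenic transcription factor RUNX2, and miR-211 from the pigment cell lineage under the transcription factor MITF. In the RefSeq gene table of goat assembly ARS1.2, MIR204 lies within the span of TRPM3 and MIR211 within that of TRPM1, and each is the only miRNA gene (1 of 1) inside its host. The reads were mapped to another build, CHIR_1.0, and the table holds no exons, so no position or intron is given for them.

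The mature sequences, as the count tables list them from 5′ to 3′, show how close the members are, with the seed in capitals.
miR-204-5p: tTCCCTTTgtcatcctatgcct
miR-211-5p: tTCCCTTTgtcatcctttgccc
miR-204-3p: gCTGGGAAggcaaagggac
chr5_7091-3p: cTCCCTTTtgtgctctgccatcca

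miR-204-5p and miR-211-5p are both 22 nt long and have 20 bases in common. Counted from 1 at the 5′ end of miR-204-5p, the substitutions are A17T and T22C, so the first 16 bases are the same. miR-204-3p, the other arm of the miR-204 hairpin, is listed with 19 nt and carries a different seed. The seed TCCCTTT stands at bases 2 to 8 of 3 of the 1804 miRNA (0.166%). Besides the 2 known miRNA this is chr5_7091-3p, a miRNA predicted by the authors with miRDeep2. It had 2 counts in FD library L07 and 0 in the other libraries. Its predicted precursor, at chr5:54150735-54150802 on the plus strand of CHIR_1.0, had a miRDeep2 score of 0.2, against a median of 3.2 over the 1070 predicted precursors. In these libraries the family was therefore counted almost wholly as miR-204-5p and miR-211-5p.

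miR-204-5p was the abundant member and ranked 128 of 1804 by its mean of 884 normalized counts. In the Control libraries it had 702 normalized counts in L01, 490 in L04, 490 in L06 and 481 in L10. Among the 6 FD libraries the lowest value was 807 in L02, the median 1060 and the highest 1617 in L05. The groups did not overlap: the 6 FD libraries all lay above the highest Control library, L01, which itself stood apart from the other 3. As a background, 6 of the 490 miRNA tested (1.22%), miR-204-5p among them, had every FD library above every Control library. For 5 (1.02%) every FD library was below every Control library. The Control mean was 541 ± 108 (SD, n = 4) and the FD mean 1113 ± 290 (SD, n = 6), a ratio of 2.06. The log2 fold change (FD over Control) from edgeR's fit over all miRNA was 1.03 with a standard error of 0.208, the 9th highest (rank 9) of the 490. miR-204 was singled out because of this contrast in earlier results of the same libraries, so the difference is given as a description and without a test.

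The counts behind these values ran from 350 in L06 to 1695 in L08. In L06 the 95% counting interval of 350 counts was 314 to 389 (exact Poisson). Counting error was thus small beside the spread of the FD libraries, from 807 to 1617 normalized counts. Control libraries L04, L06 and L10, from 481 to 490 normalized counts, differed by less than such an interval. Such intervals cover counting error only, since reads copied in amplification could not be told apart. Without any 1 library the log2 fold change stayed between 0.91 and 1.16, the lowest without L05 and the highest without L01.

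miR-211-5p was counted in all 10 libraries at a mean of 26.2 normalized counts and ranked 425 of 1804. In the Control libraries it had 33.2 normalized counts in L01, 13.7 in L04, 22.4 in L06 and 19.2 in L10. Among the FD libraries the lowest value was 17.7 in L05, the median 31.1 and the highest 37.1 in L08. The groups overlapped, since 2 of the 6 FD libraries were above every Control library and 1 of the 4 Control libraries was below every FD library. The FD library with the most miR-204-5p, L05, was the one with the least miR-211-5p. The Control mean was 22.1 ± 8.19 (SD, n = 4) and the FD mean 28.9 ± 7.54 (SD, n = 6), and the log2 fold change was 0.40 with a standard error of 0.305, given without a test for the same reason.

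This value rests on few reads, from 14 counts in L04 (95% exact Poisson interval 7.7 to 23.5) to 62 in L08 (47.5 to 79.5). The log2 fold change was 0.20 without Control library L04, 0.64 without Control library L01 and 0.26 without FD library L08. The difference between the group means, 22.1 and 28.9, was smaller than the SD of either group, 8.19 and 7.54. Whether the fold changes of miR-204-5p and miR-211-5p differ from each other was not tested.

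**Figure D1:**
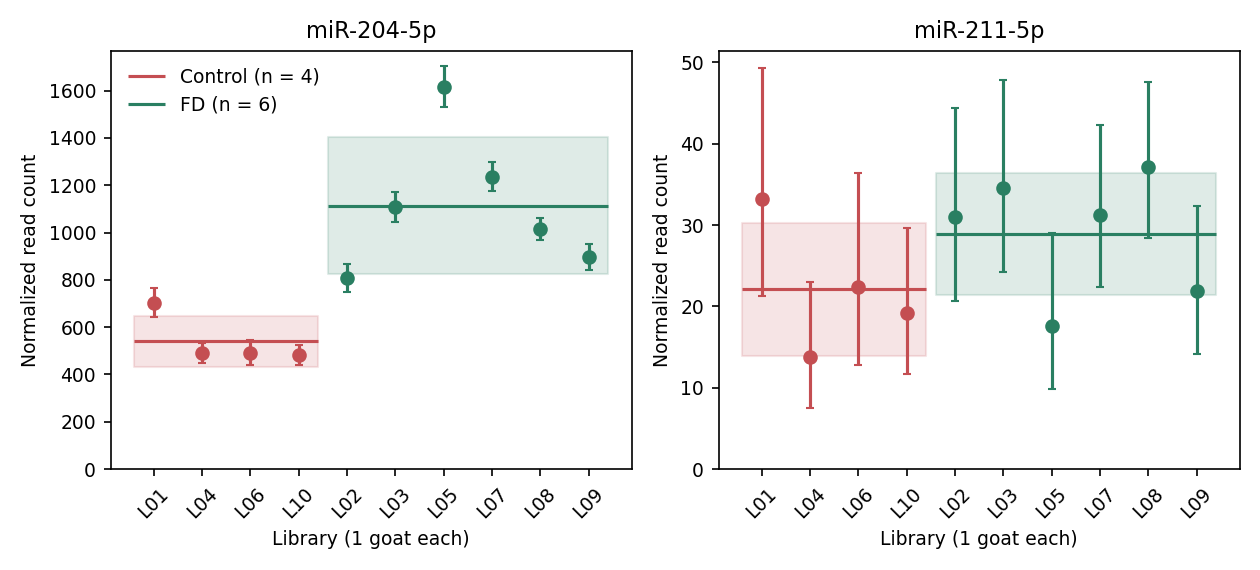
Normalized read counts of miR-204-5p (left) and miR-211-5p (right) in each library, Control in red (n = 4) and FD in green (n = 6). Points carry 95% exact Poisson intervals of the counts, lines are group means and shaded bands ± 1 SD. The FD libraries of miR-204-5p lie between 807 and 1617 and above the 4 Control libraries, while those of miR-211-5p, between 17.7 and 37.1, overlap with Control.

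miR-204-3p, the other product of the same hairpin, was near the detection limit. It had 1 count in Control library L04 and 0 in L01, L06 and L10. In the FD libraries it had 3 counts in L07, 2 each in L05 and L08, 1 each in L02 and L03, and 0 in L09. It was thus counted in 6 of the 10 libraries, with 1 count over all Control and 9 over all FD libraries, which is too few for a fold change. The 3p arm made up 10 of the 9493 counts of the hairpin, a share of 0.105% (95% exact Clopper-Pearson interval 0.0505% to 0.194%). In FD library L09, 0 of 1023 counts allow a share of up to 0.293% by a limit of 3 counts (0.36% by the two-sided exact 95% interval), and in Control library L06, 0 of 350 allow up to 0.857% (1.05%). Among the 264 hairpins with both arms listed and at least 1 arm above the threshold, the lesser arm had a median share of 2.34%. A share at or below that of miR-204 was found for 36 hairpins, miR-204 itself included.

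The levels of the members relative to each other did not enter the choice of the members and were compared within libraries. miR-204-5p had more counts than miR-211-5p in 10 of 10 libraries, by a mean log2 ratio of 5.002 ± 0.616 (SD, n = 10, 0.5 added to each count), and the two-sided exact sign-flip permutation test gave p = 0.00195. This is the smallest p that the design allows. With at most 62 counts of miR-211-5p against at least 350 of miR-204-5p, the test could give no other p. The count ratio ran from 21.2 in Control library L01 to 91.6 in FD library L05. miR-204-5p also exceeded miR-204-3p in 10 of 10 libraries, by a mean log2 ratio of 9.47 ± 0.732 (SD, n = 10) that depends on the 0.5 added to counts of 0. With at most 3 counts of miR-204-3p against at least 350 of miR-204-5p, a test of this pair could also give only the smallest p. Adjusted over these 2 pairs, the exact permutation p of the first remained 0.00195, and no conclusion is drawn from either test.

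Of the reads counted for miR-204-5p and miR-211-5p together, miR-211-5p took on average 3.86% ± 0.809 in Control (SD, n = 4) and 2.70% ± 0.955 in FD goats (SD, n = 6). The share was 4.51% in L01, 2.73% in L04, 4.37% in L06 and 3.84% in L10, and in the FD libraries it ran from 1.08% in L05 through a median of 2.75% to 3.69% in L02. The ranges overlapped, and this share repeats the contrast between diets, so it was not tested. The 2 sequences are the same up to base 16, and a kept read that starts at base 1 reaches base 17, where they differ. Erroneous reads of miR-204-5p, or reads within the mismatches allowed, could still be counted as miR-211-5p. The sources used here do not give the mismatches allowed. In L05, where miR-204-5p was highest, miR-211-5p had 1.09% as many counts as miR-204-5p (1.08% of the pair, 95% exact Clopper-Pearson interval 0.606% to 1.78%), and in L01 it had 4.72%. The part of such reads in the miR-211-5p counts was not tested.

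Goats with more miR-204-5p than others on the same diet did not have detectably more miR-211-5p. In deviations of log2(normalized count + 1) from the mean of each diet, Pearson's r was -0.0026 (n = 10, two-sided exact permutation within diets, p = 0.995) and Spearman's rho 0.248 (exact permutation p = 0.509). Within the 6 FD libraries r was -0.466 (exact permutation p = 0.35, or 0.7 after adjustment over these 2 tests) and rho -0.143 (exact permutation p = 0.803), and 4 Control libraries are too few for a value. The r over the 10 libraries depended on L05 and L01, in opposite directions. Without L05 r was 0.632 (n = 9, exact permutation p = 0.128) and rho 0.733 (exact permutation p = 0.0382, not adjusted). Without L01, with size factors computed anew, r was -0.441 (n = 9, exact permutation p = 0.31). Without L05 and L10, the 2 libraries farthest from the median of miR-204-5p, r was 0.622 (n = 8, exact permutation p = 0.211). Over all 10 libraries with diet left in, r was 0.377, given as a description.

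**Figure D2:**
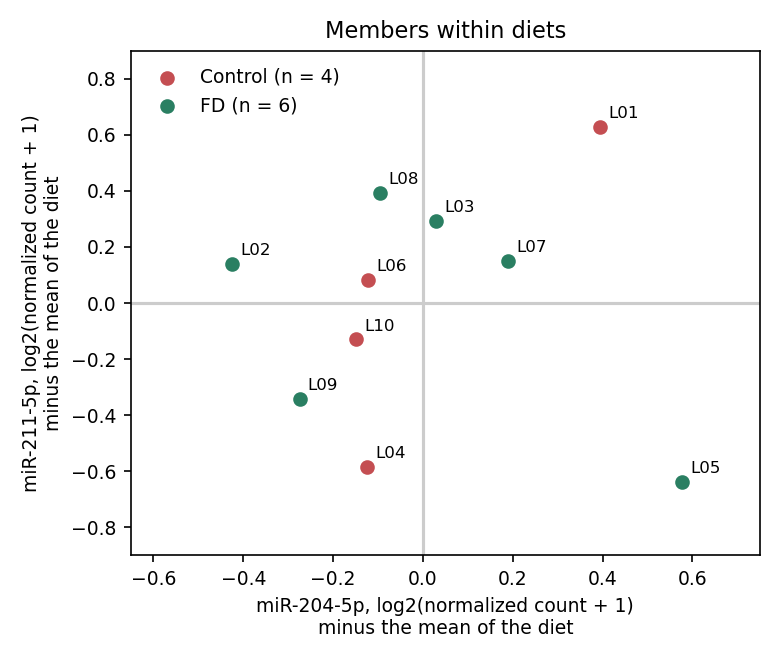
Deviation of each library from the mean of its diet, in log2(normalized count + 1), for miR-204-5p (x axis) and miR-211-5p (y axis), Control in red (n = 4) and FD in green (n = 6). L01 is high for both miRNA, L05 is the highest for miR-204-5p and the lowest for miR-211-5p, and r over the 10 points was -0.0026.

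The spread between goats on the same diet was ordinary for miRNA of these levels. The SD of log2(normalized count + 1) within diets was 0.325 for miR-204-5p, rank 267 of 490 from the most variable, and 17 of the 50 miRNA nearest in level varied more. For miR-211-5p it was 0.443, and 31 of its 50 nearest neighbours in level varied more. The variance of the counts of miR-204-5p around the mean of each diet was 50.97 times that of counting error alone, and that of miR-211-5p 2.29 times. Counting error was thus a larger part of the spread of miR-211-5p than of miR-204-5p.

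**Figure D3:**
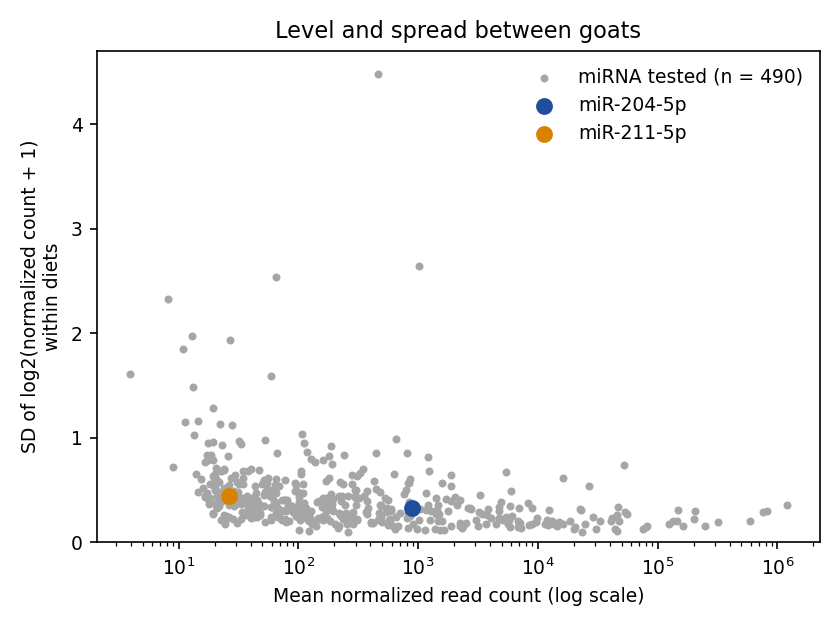
Mean normalized read count (x axis, log scale) and SD of log2(normalized count + 1) within diets (y axis) for the 490 miRNA tested, with miR-204-5p in blue (0.325) and miR-211-5p in orange (0.443). Both members lie inside the band of miRNA of the same level.

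Among the other 489 miRNA tested, those whose level followed miR-204-5p most closely across goats within diets were found by Pearson's r of the deviations over the 10 libraries. The highest was miR-214-3p, a miRNA of stromal cells, with r = 0.85. It was followed by miR-181b-5p with r = 0.825 and by the predicted chr7_10991-5p with r = 0.822. miR-133b, known from muscle, came next with r = 0.816 and is listed under 2 names with shifted sequences and the same counts in all 10 libraries. The lowest values were -0.842 for miR-500-3p and -0.84 for the predicted chr23_31169-3p. With diet left in, the highest were let-7c-5p with r = 0.943, miR-125b-3p with 0.924 and the predicted chr9_13534-5p with 0.861. These values share the same 10 libraries and their depths, were picked as extremes among 489 with a median r within diets of 0.0202, and are given as a description. Without L05 the r within diets was 0.824 for chr7_10991-5p, 0.736 for miR-214-3p, 0.718 for miR-181b-5p and 0.716 for miR-133b, so the place of miR-214-3p above chr7_10991-5p depended on L05. It was then -0.806 for miR-500-3p and -0.885 for chr23_31169-3p, and 0.724 for let-7c-5p, 0.623 for miR-125b-3p and 0.374 for chr9_13534-5p. The summed stromal markers were also highest in L05, at 1130598 normalized counts. That sum is mostly miR-143-3p (mean 763364 normalized counts) and holds little miR-214-3p (mean 296). Within diets miR-211-5p ranked 257 of 489 by its likeness to miR-204-5p.

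Other miRNA known to repress RUNX2, as miR-204 does, were set beside all miRNA tested. Of 10 such miRNA, chosen from general knowledge and all listed in the tables, 8 were above the threshold, and miR-137-3p and miR-217-5p were not, with 6 and 9 counts over all libraries. An adjusted p under 0.1 was given to 0 of the 8 in the quasi-likelihood test of edgeR (Benjamini-Hochberg adjusted), beside 0 of the 490 miRNA tested (0% in each direction). At an unadjusted p under 0.05 edgeR gave 0 of the 8, beside 7.55% of all miRNA tested higher and 8.16% lower, and DESeq2 called 0 of the 8 beside 2.45% higher and 2.86% lower. With only 8 miRNA, 0 calls at such shares do not set the list apart. The log2 fold change was above 0 for 6 and below 0 for 2, with a median of 0.11, against a median of -0.0004 over all 490. The list's median was 0.20 without Control library L01, 0.07 without Control library L06 and 0.05 without FD library L08.

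Within this list, miR-34c-5p, a miRNA induced by p53, had a Control mean of 84.8 ± 43.5 normalized counts (SD, n = 4) and an FD mean of 118 ± 46.7 (SD, n = 6), a log2 fold change of 0.46 (standard error 0.366, edgeR adjusted p = 0.505). miR-205-5p, an epithelial miRNA that is also on the epithelial marker list, averaged 13437 ± 5835 in Control (SD, n = 4) and 17977 ± 5870 in FD goats (SD, n = 6), a log2 fold change of 0.41 (standard error 0.314, edgeR adjusted p = 0.486). miR-218-5p had a log2 fold change of 0.27 and miR-338-3p of 0.17. The muscle miRNA miR-133a-3p had 0.05, miR-23a-3p 0.02, miR-135a-5p -0.03 and miR-30c-5p -0.06. The adjusted p-values of these 6 ran from 0.494 to 0.967 in edgeR's test.

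**Figure D4:**
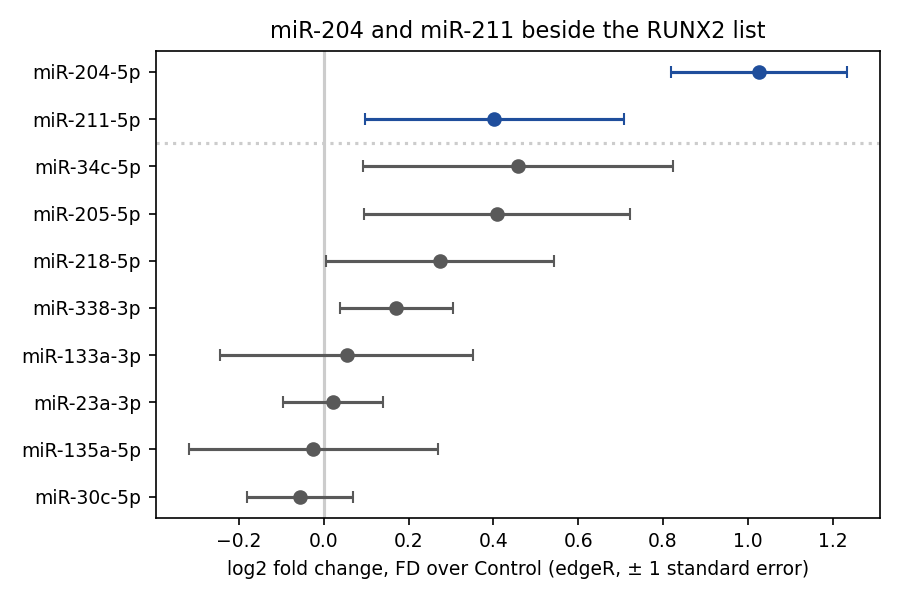
log2 fold change, FD over Control, from edgeR for miR-204-5p and miR-211-5p (blue) and for the 8 tested miRNA of the RUNX2 list (grey). Bars are ± 1 standard error. miR-204-5p lies at 1.03 and miR-211-5p at 0.40, while the list runs from -0.06 to 0.46.

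Summed markers of leukocytes, endothelium and red blood cells had higher means in FD goats, and their part in the values of miR-204-5p was not tested. The lists were chosen with earlier results of these libraries known. The authors had already reported both arms of miR-223, miR-126-3p and miR-451-5p as higher in these FD libraries. The calls of markers below are therefore a description and no independent evidence. The epithelial sum of 9 listed markers (miR-203-3p was not matched), led by miR-141-3p, miR-200b-3p and miR-205-5p, ran from 224378 to 254349 normalized counts in Control and from 183280 to 248710 in FD libraries, a ratio of the means of 0.924. Of the 9, 4 had a log2 fold change above 0 and 5 below 0, with a median of -0.107. At an unadjusted p under 0.05 in edgeR's test 2 of the 9 were lower, beside 8.16% of all miRNA tested, and 0 were higher. For the leukocyte list, led by miR-155-5p, miR-150-5p and miR-146a-5p, with 5 of 7 markers matched (miR-142-3p and miR-142-5p were not), the sum ran from 9496 to 15531 in Control and from 12226 to 23631 in FD libraries, a ratio of 1.36. Of its 5 tested markers 4 had a log2 fold change above 0, all 4 with an unadjusted p under 0.05 in edgeR's test, beside 7.55% of all miRNA tested. These 4 include both arms of the miR-223 hairpin. The remaining marker, miR-155-5p, which led the list by abundance, went the other way, at -0.12 (unadjusted p = 0.574 in edgeR's test). The median log2 fold change of this list was 0.87, and the highest, of miR-223-3p, a miRNA of neutrophils and monocytes, was 1.15, above the 1.03 of miR-204-5p (miR-223-3p is named here after its value was seen). The endothelial sum of miR-126-3p and miR-126-5p ran from 117544 to 144955 in Control and from 136542 to 197735 in FD libraries, a ratio of 1.26, and 5 FD libraries exceeded all Control libraries.

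The erythroid sum of 3 matched markers of 4 (miR-486-5p was not), led by miR-451-5p, ran from 3750 to 6061 in Control and from 5961 to 8756 in FD libraries, a ratio of 1.38. The stromal sum of 4 matched markers of 5 (miR-199a-3p was not), led by miR-143-3p, had a ratio of 1.09 and ran from 686763 to 924238 in Control and from 576426 to 1130598 in FD libraries. The neural sum of 4 matched markers of 5 (miR-124-3p was not), led by miR-7-5p and miR-9-5p, was low, from 150.7 to 192 in Control and from 127 to 186 in FD libraries, a ratio of 1.01. An adjusted p under 0.1 was given to 0 markers of these 6 lists by edgeR's test, beside 0% of all miRNA tested in each direction. DESeq2 called 1 of the 2 endothelial and 2 of the 5 leukocyte markers, beside 2.45% of all miRNA tested called higher. These calls were all higher in FD goats, and the 2 leukocyte ones were the arms of miR-223. At an unadjusted p under 0.05 edgeR gave 2 of 2 endothelial and 1 of 3 erythroid markers. These markers were all higher in FD goats, beside 7.55% of all miRNA tested, and the 2 endothelial ones are arms of the same hairpin. At this level edgeR gave 0 of 4 stromal and 0 of 2 neural markers tested.

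**Figure D5:**
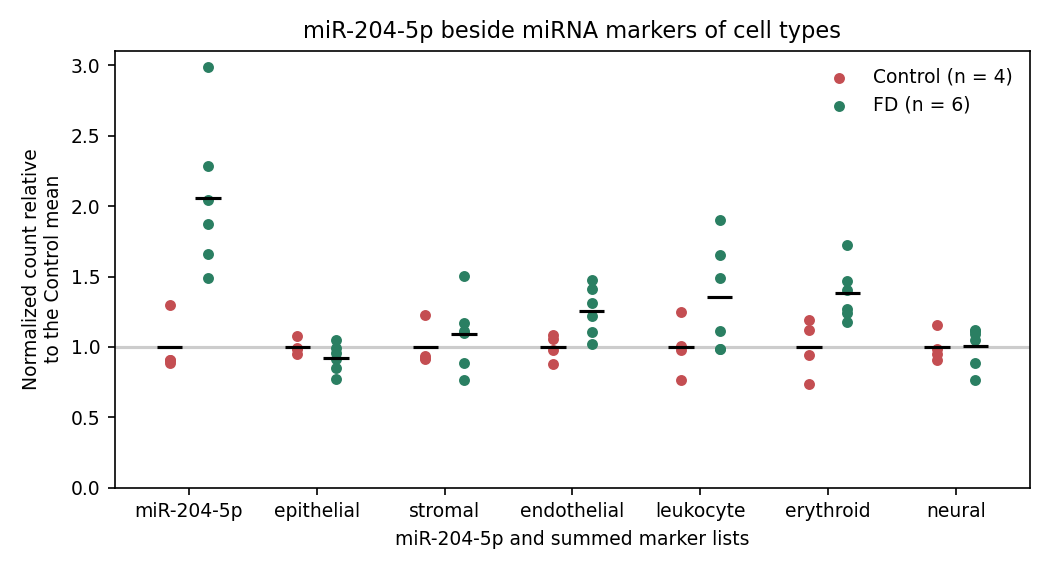
Normalized counts of miR-204-5p and summed normalized counts of 6 marker lists in each library, relative to the Control mean (y axis), Control in red (n = 4) and FD in green (n = 6). Black lines are group means. The FD mean is 2.06 for miR-204-5p, from 1.26 to 1.38 for the endothelial, leukocyte and erythroid lists and from 0.924 to 1.09 for the other 3.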

How the data were processed

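Mammary small RNA libraries of 4 Control and 6 FD goats were analysed, 1 per goat. The authors prepared them with the TruSeq Small RNA kit, removed adapters with Cutadapt, kept reads of 17 to 28 nt, mapped them to CHIR_1.0 and counted them per mature miRNA with the quantifier of miRDeep2. The submitters' processing notes name CASAVA 1.8.2. The counts used are those deposited by the authors, without normalization, and their 10 columns of normalized values were not used. The miRDeep2 score and read count of predicted precursors, deposited by the authors, were computed on all libraries together. No molecular identifiers are described, so amplified copies were counted.

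miRNA with a highest normalized count above 28 were fitted with edgeR's quasi-likelihood test (TMM, two-sided, Benjamini-Hochberg over the 490, threshold 0.1). The standard error is the log2 fold change divided by the square root of F. The members and lists were chosen with earlier results of these data known, so no test of diet is given for the members. Calls of listed miRNA are given as a description. Named miRNA are the members, those of the same seed, the RUNX2 list, the epithelial, stromal, endothelial, leukocyte, erythroid and neural marker lists (at most 3 named each), and the 5 highest and 2 lowest by r within diets and 3 highest over all libraries. From the leukocyte list miR-223-3p is also named, after its value was seen. Pairs were tested by exact permutation. The script was tested on simulated data. The alternatives were DESeq2 with its fold change prior, other normalizations, filters, depths and pseudocounts, and each library left out. The software was edgeR 4.0.16 and DESeq2 1.42.0 in R 4.3.3, and scipy 1.17.1, numpy 2.4.6, matplotlib 3.10.9 and pandas 2.3.3 in Python 3.11.15.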

Additional observations from a re-analysis of the deposited data

Results flagged for a closer look

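Among 34 groups of libraries examined for a value far from the rest, 2 held one, where chance gives about 1 in 20. Control library L01 had 702.2 normalized counts of miR-204-5p, while the other 3 Control libraries had from 481.1 to 490.2, and the gap was 0.958 of the range of the group. The stromal marker sum of Control library L04 was 924237.8 normalized counts, against 686762.8 to 706122.2 in the other 3, with a gap of 0.918 of the range.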

How the results depend on the processing

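The alternatives were DESeq2, size factors or library totals in place of TMM, no filter, filterByExpr, equal depth, other pseudocounts and each library left out in turn. The log2 fold change of miR-204-5p kept its sign in all 16, from 0.92 to 1.05 with all libraries and from 0.91 to 1.16 with 1 left out, and that of miR-211-5p in all 15, from 0.32 to 0.44 and from 0.20 to 0.64. At equal depth miR-211-5p fell under the threshold of 28. The mean log2 ratio of miR-204-5p to miR-211-5p ran from 4.84 to 5.07 over 13 alternatives and that of the arms from 8.88 to 10.6, where the pseudocount moved it most. The correlation of miR-204-5p and miR-211-5p within diets (-0.0026) changed sign with library totals (0.131), without the 2 libraries farthest from the median (0.622) and without L02, L05 or L08, and ranged from -0.441 to 0.633 with 1 library left out, with exact permutation p-values of 0.123 or more. Leaving out L05 (0.633) or L01 (-0.441) moved it most, in opposite directions, and the cause was not tested. No miRNA (0 of 490) passed an adjusted p of 0.1 in edgeR, where 77 had an unadjusted p under 0.05. DESeq2 called 12 higher and 14 lower in FD goats. Without a filter edgeR called 3 higher and 2 lower of 1804, with 178 under an unadjusted p of 0.05. With 1 library left out it called from 0 to 1 higher (1 without L02) and 0 lower, and from 46 (without L01 or L08; 50 without L06) to 97 had an unadjusted p under 0.05. These counts, and the shares over all miRNA tested, include the members. Calls of a member among them are no test of it, since the members were chosen with earlier results of this contrast known. The RUNX2 list had 0 calls in all 16 and a median from 0.0545 to 0.197 with 1 library left out. No paired analysis was possible because the Control and FD libraries came from different goats. Depth limits miR-211-5p and miR-204-3p, with at most 62 and 3 counts in a library.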
